A study of Mus musculus with 5 samples.

Results

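The genes described here are the core of the TGF-beta pathway in the neonatal mouse heart: the ligands Tgfb1, Tgfb2 and Tgfb3, the receptors Tgfbr1 and Tgfbr2, and the intracellular mediators Smad2, Smad3, Smad4, Smad6 and Smad7. They were chosen by name, with earlier results of these data known, and their 10 symbols were matched to the Ensembl identifiers of the deposited counts. All 10 were found among the 49671 genes counted and all 10 were among the 14880 genes tested. Polyadenylated RNA of whole hearts at postnatal day 2 (PN2) was sequenced from wild-type mice (CharmeWT) and from mice with a PolyA signal inserted into the locus of the long noncoding RNA Charme (CharmeKO), both on the C57BL6/J strain, with no treatment named. Hearts of littermates were pooled by genotype into 3 CharmeWT pools, each of 9 hearts, and 2 CharmeKO pools, each of 3 hearts, and the effect of genotype and that of pool size cannot be told apart. The question asked of the members is whether their RNA level differed between the genotypes by more than the spread between pools, and the p-values below measure that spread only.

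TGF-beta ligands are secreted in a latent complex and, once released, bind the type II receptor TGFBR2, which recruits and phosphorylates the type I receptor TGFBR1. The active receptor phosphorylates the receptor-regulated SMADs SMAD2 and SMAD3, which join SMAD4 and enter the nucleus to regulate transcription. SMAD6 and SMAD7 are inhibitory SMADs that act against the receptors and are themselves induced by signalling. In the heart the pathway is known for its roles in valve and septum formation, vessel growth and the activation of fibroblasts.

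SMAD3 and SMAD4 bind the core SMAD-binding element CAGAC and also the related palindrome GTCTAGAC, and the promoters of the members were searched for these letters. RefSeq promoter windows on GRCm38.p6, from 250 bases before to 50 bases after the start site, were available for 6 of the 10 members, and none was found for Tgfb3, Smad2, Smad4 or Smad7. Of these windows those of Smad3 and Smad6 are shown, Smad3 because it is the member whose levels separated the genotypes most, and Smad6 because its window alone among the 6 members held the palindrome. Both genes lie on the minus strand of chromosome 9 and the sequences are written 5′ to 3′ along the transcript, stopping 30 bases after the start site, with the palindrome in capitals.
Smad3, chr9:63757965-63758244: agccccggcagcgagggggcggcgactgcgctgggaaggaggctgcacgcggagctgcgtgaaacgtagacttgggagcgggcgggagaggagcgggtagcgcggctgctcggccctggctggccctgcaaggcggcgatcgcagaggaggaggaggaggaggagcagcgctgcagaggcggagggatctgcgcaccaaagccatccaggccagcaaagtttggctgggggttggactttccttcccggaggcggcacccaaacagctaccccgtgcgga
Smad6, chr9:64022030-64022309: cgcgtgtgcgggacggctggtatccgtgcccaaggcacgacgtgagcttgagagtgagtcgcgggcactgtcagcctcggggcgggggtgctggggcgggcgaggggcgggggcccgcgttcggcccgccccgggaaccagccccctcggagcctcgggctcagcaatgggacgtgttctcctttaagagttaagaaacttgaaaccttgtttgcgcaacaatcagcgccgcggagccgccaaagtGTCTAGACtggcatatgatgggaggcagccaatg
The window of Smad6 held no CAGAC on either strand and 1 palindrome, which began at position 247 of the window and so lay across the start site. The window of Smad3 held neither motif, and neither did that of Tgfb1. CAGAC was present at 2 places for Tgfb2 (positions 30 and 47), at 1 for Tgfbr2 (position 91) and at 1 in the second of the 2 windows of Tgfbr1 (position 48). On both strands together, CAGAC was found in 49.6% of all 32851 windows and GTCTAGAC, which does not contain it, in 0.213%. These matches describe letters only.

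The libraries held between 16721055 and 21646378 counts on genes, and each member had between 157 and 1961 counts in every pool. In the whole hearts, cardiomyocyte markers made up 53413 to 64960 CPM (counts scaled to library size) in the CharmeWT pools and 59948 and 66234 in the CharmeKO pools. Of these 12 markers 3 had both CharmeKO pools above all CharmeWT pools and 2 had both below, beside 17.8% and 18.2% of all genes tested. Against the mean of the CharmeWT pools, their median was 0.34 log2 CPM in CharmeKO pool 1 and -0.16 in CharmeKO pool 2. Charme was counted 810, 183 and 276 times in the CharmeWT pools and 57 and 79 times in the CharmeKO pools, a log2 fold change of -2.49 (SE 0.549, adjusted p = 0.0763 by edgeR's quasi-likelihood test) that was -1.68 without CharmeWT pool 1 (adjusted p = 0.153). Which part of the locus this count covers is not given in the sources used here. Both CharmeKO libraries stood apart in other ways. Mitochondrially encoded genes took 21.1% of the counts of CharmeKO pool 1 and 9.68% to 11.1% of the other pools, and salivary gland markers took 2.58% of CharmeKO pool 2, 0.0278% of CharmeKO pool 1 and at most 3.30e-05% of the CharmeWT pools. The members' values are therefore given with and without each CharmeKO pool where that changes them. A fit without either of these pools leaves 1 CharmeKO pool, so its p-values rest on the spread between the CharmeWT pools alone and assume that the lone CharmeKO pool varies like them.

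None of the 10 members was called changed between the genotypes by edgeR's quasi-likelihood test, in which a call is an adjusted p under 0.1 with a mean of at least 1 FPKM (fragments per kilobase of exon, scaled to library size) in a genotype. Over all genes tested 2.05% were called, 1.53% higher and 0.524% lower in CharmeKO. Smad3 came nearest, and it was the only member with an unadjusted p under 0.05, against 18.6% of all genes. The log2 fold change of CharmeKO over CharmeWT was below 0 for 7 members and above 0 for 3, with a median of -0.17 for the members and 0.02 for all genes tested. In bulk RNA of whole hearts, fewer cells of a type and less RNA per cell cannot be told apart.

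**Figure D1:**
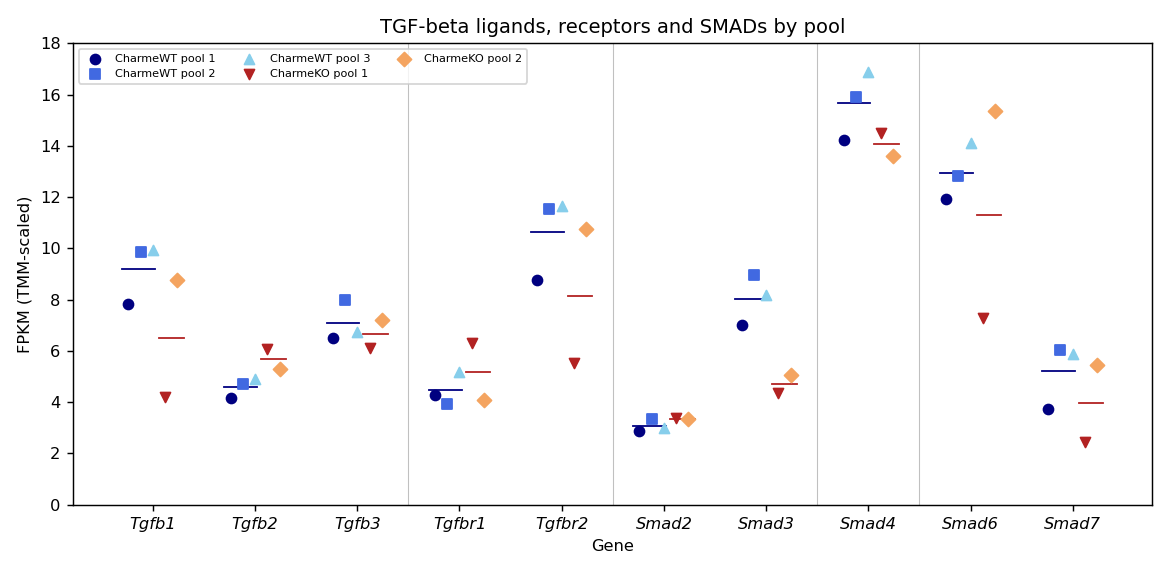
Level of each member (FPKM, linear axis) in the 3 CharmeWT pools (blue) and the 2 CharmeKO pools (red and orange), with a short line at the mean of each genotype and members ordered by role. Smad3 is the member with both CharmeKO pools, at 4.37 and 5.07 FPKM, below all CharmeWT pools, and Tgfb2 is the member with both above.

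Of the ligands, Tgfb1 (ENSMUSG00000002603, chromosome 7, 25687002 to 25705077 on GRCm38) was the most abundant in the CharmeWT hearts. It was at 7.84, 9.85 and 9.92 FPKM in CharmeWT pools 1 to 3 and at 4.22 and 8.78 in CharmeKO pools 1 and 2. CharmeKO pool 1 was the lowest of the 5, while CharmeKO pool 2 lay within the CharmeWT range. The means were 9.20 ± 1.18 FPKM (SD, n = 3) and 6.50 ± 3.23 (SD, n = 2), and the log2 fold change was -0.50 with a 95% interval of -1.14 to 0.15 (adjusted p = 0.375). The value rested on CharmeKO pool 1: without that pool the log2 fold change of Tgfb1 was -0.06 (adjusted p = 0.925), and without CharmeKO pool 2 it was -1.13 (adjusted p = 0.00610).

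Tgfb2 (ENSMUSG00000039239, chromosome 1, 186622792 to 186705989), the ligand best known for its part in shaping the valves and the outflow tract, was at 4.17, 4.70 and 4.91 FPKM in the CharmeWT pools and at 6.08 and 5.29 in the CharmeKO pools. Both CharmeKO pools were above all 3 CharmeWT pools, an order seen in 17.8% of all genes tested. From 4.59 ± 0.382 FPKM (SD, n = 3) to 5.68 ± 0.561 (SD, n = 2), the log2 fold change was 0.31 with an interval of -0.12 to 0.73 and did not pass the test (adjusted p = 0.406). It stayed between 0.21 and 0.40 over the alternatives run. Exons of an antisense gene, Gm29491, overlap Tgfb2 on the other strand, and the libraries were stranded and counted by strand.

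Tgfb3 (ENSMUSG00000021253, chromosome 12, 86056745 to 86079041) showed no separation of the genotypes. It was at 6.49, 8.00 and 6.74 FPKM in the CharmeWT pools and at 6.09 and 7.20 in the CharmeKO pools, which overlapped. Its log2 fold change was -0.09 with an interval of -0.55 to 0.37 (adjusted p = 0.841). The summed level of the ligands was 18.5, 22.5 and 21.6 FPKM in the CharmeWT pools and 16.4 and 21.3 in the CharmeKO pools. Tgfb1 made up 42.4%, 43.7% and 46.0% of that sum in CharmeWT, 41.3% in CharmeKO pool 2 and 25.7% in CharmeKO pool 1, where Tgfb2 took 37.1% against 20.9% to 24.9% in the other pools. The ligand mixture of CharmeKO pool 1 thus differed from that of the other 4 pools, among them the other CharmeKO pool.

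The receptors went opposite ways in CharmeKO pool 1. Tgfbr2 (ENSMUSG00000032440, chromosome 9, 116084293 to 116175360), which binds the ligand, was at 8.75, 11.5 and 11.7 FPKM in the CharmeWT pools and at 5.53 and 10.7 in the CharmeKO pools. Only CharmeKO pool 1 lay below the CharmeWT range. The means were 10.6 ± 1.65 FPKM (SD, n = 3) and 8.13 ± 3.68 (SD, n = 2), with a log2 fold change of -0.39, an interval of -0.99 to 0.22 and an adjusted p of 0.459. Without CharmeKO pool 1 it was 0.01, and without CharmeKO pool 2 it was -0.95 (adjusted p = 0.0108).

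Tgfbr1 (ENSMUSG00000007613, chromosome 4, 47353222 to 47414931), the receptor that phosphorylates the SMADs, was at 4.28, 3.94 and 5.19 FPKM in the CharmeWT pools and at 6.30 and 4.09 in the CharmeKO pools. Here CharmeKO pool 1 was the highest of the 5 and CharmeKO pool 2 lay within the CharmeWT range. The log2 fold change of 0.21 had an interval of -0.31 to 0.73 (adjusted p = 0.643), and it turned to -0.13 without CharmeKO pool 1 and to -0.08 with a correction for gene length and GC content. As a share of the summed receptors, Tgfbr1 was 25.5% to 32.9% in the CharmeWT pools, 27.6% in CharmeKO pool 2 and 53.3% in CharmeKO pool 1. The receptors together were at 13.0, 15.5 and 16.8 FPKM in the CharmeWT pools and at 11.8 and 14.8 in the CharmeKO pools.

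Smad3 (ENSMUSG00000032402, chromosome 9, 63646767 to 63757994), the receptor-regulated SMAD that binds DNA directly, was lower in both CharmeKO pools. It was at 7.00, 8.96 and 8.17 FPKM in the CharmeWT pools and at 4.37 and 5.07 in the CharmeKO pools, from 799, 877 and 895 counts and from 342 and 627 counts. The groups did not overlap, and both CharmeKO pools lay below all CharmeWT pools, as they did for 18.2% of all genes tested. The mean was 8.04 ± 0.984 FPKM (SD, n = 3) in CharmeWT and 4.72 ± 0.495 (SD, n = 2) in CharmeKO. The log2 fold change was -0.77 (SE 0.199) with an interval of -1.21 to -0.32, and the quasi-likelihood test gave an adjusted p of 0.117, just outside the threshold.

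The call on Smad3 depended on the test. The likelihood ratio test of edgeR, which the study's methods name, gave an adjusted p of 0.0318 and DESeq2 gave 0.0221, and Smad3 was the 1 member that each called. Those tests also called more of all genes: the likelihood ratio test called 6.27% in either direction and 2.35% lower in CharmeKO, and DESeq2 called 3.21% lower. Over all alternatives the log2 fold change of Smad3 stayed between -0.89 and -0.60 and the adjusted p ran from 0.0142 to 0.496. The difference was present with either CharmeKO pool alone, at -0.66 without CharmeKO pool 1 and -0.89 without CharmeKO pool 2. An exact permutation of 5 pools has 10 assignments and cannot give a two-sided p below 0.1.

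Smad2 (ENSMUSG00000024563), the other receptor-regulated SMAD, was at 2.89, 3.35 and 2.97 FPKM in the CharmeWT pools and at 3.36 and 3.32 in the CharmeKO pools. The CharmeKO pools were close to each other and to the highest CharmeWT pool. Its log2 fold change was 0.12 with an interval of -0.29 to 0.54 (adjusted p = 0.742). Smad3 was the larger part of the receptor-regulated SMAD RNA per length in every pool, but its share of Smad2 and Smad3 together was 70.8%, 72.8% and 73.3% in the CharmeWT pools and 56.5% and 60.4% in the CharmeKO pools. These shares did not overlap between genotypes, but they are computed from the same Smad3 levels and are not a separate result. How often such shares of other gene pairs do not overlap was not computed. The sum of both was 9.89, 12.3 and 11.1 FPKM against 7.74 and 8.39.

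Smad4 (ENSMUSG00000024515), the common partner of the receptor-regulated SMADs, was the member with the highest mean level in both genotypes. It was at 14.2, 15.9 and 16.9 FPKM in the CharmeWT pools and at 14.5 and 13.6 in the CharmeKO pools, which overlapped. In CharmeKO pool 2 Smad6 was higher, at 15.3 FPKM. The log2 fold change of Smad4 was -0.16 with an interval of -0.55 to 0.23 (adjusted p = 0.648). Its direction was the same in all alternatives run, between -0.22 and -0.10.

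The inhibitory SMADs differed more between the CharmeKO pools than between the genotypes. Smad6 (ENSMUSG00000036867, chromosome 9, 63953076 to 64022059), whose palindrome-bearing promoter is shown above, was at 11.9, 12.8 and 14.1 FPKM in the CharmeWT pools and at 7.27 and 15.3 in the CharmeKO pools, one below and the other above every CharmeWT pool. The log2 fold change of -0.19 had an interval of -0.82 to 0.44 (adjusted p = 0.736). It was 0.25 without CharmeKO pool 1 (adjusted p = 0.590) and -0.84 without CharmeKO pool 2 (adjusted p = 0.0150).

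Smad7 (ENSMUSG00000025880), which blocks the receptors and is a common early target of the pathway, was at 3.75, 6.05 and 5.87 FPKM in the CharmeWT pools and at 2.46 and 5.44 in the CharmeKO pools. CharmeKO pool 1 was the lowest of the 5, CharmeWT pool 1 was the next, and CharmeKO pool 2 lay within the CharmeWT range. The log2 fold change was -0.39 with an interval of -1.15 to 0.36 (adjusted p = 0.552), 0.06 without CharmeKO pool 1 and -1.09 without CharmeKO pool 2 (adjusted p = 0.0258). The 5 SMADs together were at 39.8, 47.1 and 48.0 FPKM in the CharmeWT pools and at 32.0 and 42.8 in the CharmeKO pools.

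**Figure D2:**
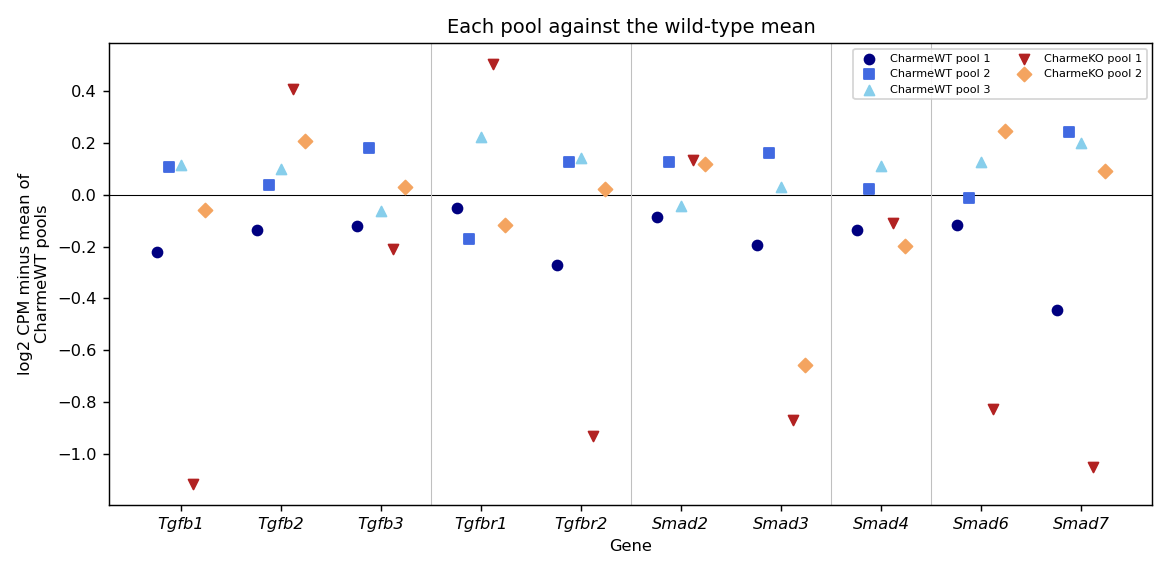
Difference of each pool from the mean of the CharmeWT pools (log2 CPM; 0 is that mean) for each member. CharmeKO pool 1 lies about 1 log2 unit below CharmeKO pool 2 for Tgfb1 (-1.06), Tgfbr2 (-0.96), Smad6 (-1.08) and Smad7 (-1.14), while for Smad3 both CharmeKO pools are low.

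The members thus fell into unlike patterns over the pools. CharmeKO pool 1 was more than 2-fold below CharmeKO pool 2 for 3 members, Tgfb1, Smad6 and Smad7, as it was for 7.94% of all genes tested. When CharmeKO pool 2 was left out, 5 members were called lower (Tgfb1, Tgfbr2, Smad3, Smad6 and Smad7), in a fit that called 31.7% of all genes and 15.6% of them lower. When CharmeKO pool 1 was left out, no member was called by the quasi-likelihood test, against 4.33% of all genes, and Smad3 (unadjusted p = 0.00635) was the 1 member with an unadjusted p under 0.05, against 14.9% of all genes. The median log2 fold change of the members was -0.53 without CharmeKO pool 2 and 0.02 without CharmeKO pool 1. CharmeKO pool 1 is also the pool with the high mitochondrial share of 21.1%, whose part in these values was not tested. With mitochondrial and salivary genes removed before scaling, the log2 fold change of Smad3 was -0.77 (adjusted p = 0.114 by the quasi-likelihood test). That removal only takes those genes out of scaling and testing. The part of either feature in the Smad3 values was not tested.

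**Figure D3:**
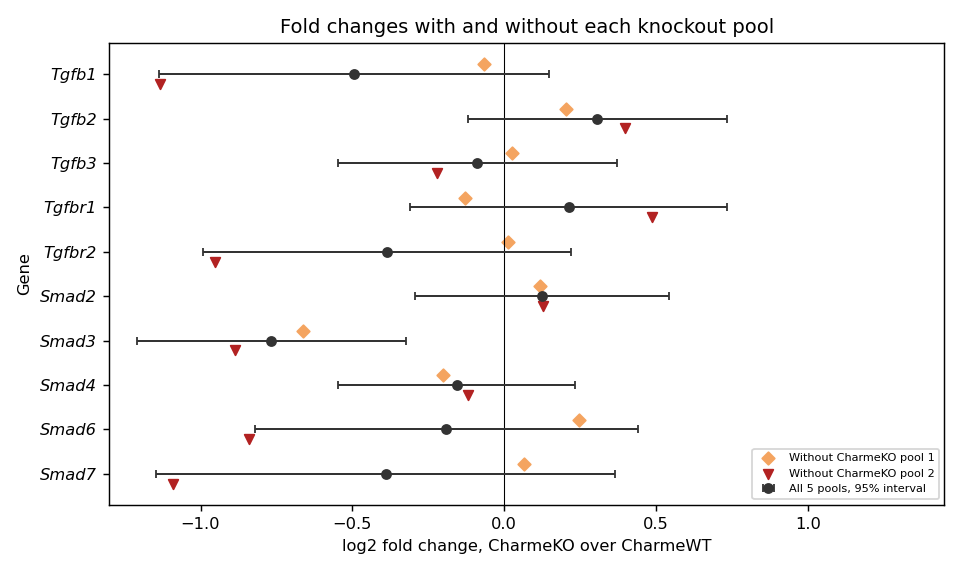
Log2 fold change of each member, CharmeKO over CharmeWT, with all 5 pools (black, bars are 95% intervals) and with either CharmeKO pool left out (orange, without pool 1, and red, without pool 2). The interval of Smad3, -1.21 to -0.32, is the one that does not reach 0, and its values without either CharmeKO pool stay at -0.66 and -0.89.

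Levels per length put the members in the order Smad4, Smad6, Tgfbr2, Tgfb1, Smad3, Tgfb3, Smad7, Tgfb2, Tgfbr1 and Smad2 in the CharmeWT hearts, from 15.7 to 3.07 FPKM. Neighbours in that order whose pool ranges did not overlap were Smad4 and Smad6, Smad6 and Tgfbr2, Tgfb3 and Smad7, and Tgfbr1 and Smad2, and the ranges of the other neighbours overlapped. In CharmeKO the order was Smad4, Smad6, Tgfbr2, Tgfb3, Tgfb1, Tgfb2, Tgfbr1, Smad3, Smad7 and Smad2, with the ranges of all neighbours overlapping. Smad3 stood at place 5 of the 10 members in CharmeWT and at place 8 in CharmeKO.

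Among 11079 protein-coding genes with a mean of at least 1 FPKM, the genes whose log2 CPM over the 5 pools ran closest to that of Smad3 were Eml2, Frmd4a and Pxdn, with Euclidean distances between centred values of 0.0796, 0.0838 and 0.0957. All had both CharmeKO pools below the CharmeWT pools, with log2 fold changes of -0.74 (adjusted p = 0.105) for Eml2, -0.78 (adjusted p = 0.0989) for Frmd4a and -0.78 (adjusted p = 0.115) for Pxdn. Frmd4a was called and the others, like Smad3, were just past the threshold. The nearest members to Smad3 were Tgfb1 at 0.636 and Tgfbr2 at 0.641, and 20.5% and 20.9% of the genes compared were nearer than these. Because Eml2, Frmd4a and Pxdn were picked for their likeness to Smad3 over the same 5 pools, their direction and the size of their fold changes follow from that choice. Likeness over 5 pools is a description.

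Around the members, 5 lists of pathway genes held 99 genes, of which 94 were tested and 5 were called, 3 higher and 2 lower in CharmeKO, beside 2.05% of all genes tested. Their median log2 fold change was -0.11, with 55 below 0 and 39 above, and both CharmeKO pools lay below all CharmeWT pools for 23 of them and above for 11, beside 18.2% and 17.8% of all genes. The list of latency and activation genes, which hold or release the ligand, had the lowest median, -0.55, with 14 of 18 genes below 0 and 9 with both CharmeKO pools below. Against the mean of the CharmeWT pools, its median was -0.81 log2 CPM in CharmeKO pool 1 and -0.25 in CharmeKO pool 2. In that list 1 gene was called higher and none lower by the quasi-likelihood test, 8 had an unadjusted p under 0.05 (18.6% of all genes did), and the likelihood ratio test called 1 higher and 3 lower (2.35% of all genes were called lower by it).

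The gene of that list called higher was Thbs1, whose product thrombospondin 1 can activate latent TGF-beta. It was at 4.28, 5.47 and 6.26 FPKM in the CharmeWT pools and at 8.63 and 12.0 in the CharmeKO pools, all higher than in CharmeWT, with a log2 fold change of 0.95 (SE 0.223, adjusted p = 0.0900). Ltbp4, a latent TGF-beta binding protein, had the lowest fold change of the list, at 45.0, 60.4 and 56.6 FPKM against 17.6 and 37.9. Both CharmeKO pools were below. Its log2 fold change of -0.96 did not pass the quasi-likelihood test (adjusted p = 0.163) but was called by the likelihood ratio test (adjusted p = 0.0668) and by DESeq2 (adjusted p = 0.0303), and it was -0.51 without CharmeKO pool 1 and -1.63 without CharmeKO pool 2 (adjusted p = 0.00126). Mmp2, a matrix metalloprotease, was at 49.6 to 57.7 FPKM in CharmeWT and at 25.5 and 39.2 in CharmeKO, with a log2 fold change of -0.76 (adjusted p = 0.139). It too was called by the likelihood ratio test (adjusted p = 0.0548) and by DESeq2 (adjusted p = 0.0308), and it was -0.48 without CharmeKO pool 1 and -1.11 without CharmeKO pool 2 (adjusted p = 0.00368). Dcn, which encodes the TGF-beta-binding proteoglycan decorin, was at 39.4 to 61.5 FPKM and at 71.8 and 58.1, which overlapped (0.38, adjusted p = 0.368).

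None of the 16 co-receptors and receptor regulators was called by the quasi-likelihood or the likelihood ratio test, none had an unadjusted p under 0.05, and their median was -0.03. Their log2 fold changes ran from -0.46 for Pmepa1, a target and inhibitor of the pathway, to 0.44 for Usp15, a deubiquitinase. The most abundant were Fkbp1a, whose product binds the type I receptor (0.05, adjusted p = 0.903), and Eng, the endothelial co-receptor endoglin (-0.36, adjusted p = 0.511). Eng was at 50.8, 78.2 and 64.2 FPKM in the CharmeWT pools and at 34.2 and 66.1 in the CharmeKO pools, and so was low in CharmeKO pool 1 as Tgfb1, Tgfbr2, Smad6 and Smad7 were. Without CharmeKO pool 2 Eng (-0.92), Pmepa1 (-1.03) and Usp15 (0.71) were called, with adjusted p-values of 0.0173, 0.00618 and 0.0381, in the fit that called 31.7% of all genes.

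Of 17 SMAD partners and corepressors tested none was called by the quasi-likelihood test, 3 had an unadjusted p under 0.05, and the likelihood ratio test called 1 lower. The lowest fold change was that of Crebbp, a coactivator of SMAD complexes, at 3.19, 3.26 and 3.45 FPKM against 1.89 and 2.31 (-0.65, adjusted p = 0.146), which the likelihood ratio test (adjusted p = 0.0682) and DESeq2 (adjusted p = 0.0494) called. Ski, a corepressor, was at -0.44 (adjusted p = 0.267), with both CharmeKO pools below, and Hdac1, a histone deacetylase, at 0.29 (adjusted p = 0.401), with both above. Without CharmeKO pool 2 the log2 fold changes were -0.81 for Crebbp, -0.69 for Ski and 0.43 for Hdac1. Of 14 genes of the BMP and activin branches none was called by the quasi-likelihood or the likelihood ratio test, and 2 had an unadjusted p under 0.05. Smad5, a receptor-regulated SMAD of the BMP branch, was at -0.30 (adjusted p = 0.388). Gdf11, a ligand, was at -0.60 (adjusted p = 0.287), or -0.98 without CharmeKO pool 2. Fstl1, a secreted follistatin-like protein and the most abundant of that list, was at 0.14 (adjusted p = 0.690), and the activin receptor gene Acvr2a was at 0.20 (adjusted p = 0.643). Acvr1c, named after its values were seen, had a log2 fold change of 3.11 at 2, 6 and 7 counts against 13 and 76, under the FPKM minimum for a call.

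Of 29 tested genes widely described as induced by TGF-beta, 2 were called higher and 2 lower, where 1.53% and 0.524% of all genes were. The likelihood ratio test called 4 higher and 3 lower, and it called 6.27% of all genes in either direction. An unadjusted p under 0.05 by the quasi-likelihood test was seen for 9 of the 29, against 18.6% of all genes. The median was 0.09, with 16 above 0 and 13 below. Ccn2, a matricellular protein, rose from 38.9, 28.4 and 22.8 FPKM to 158 and 47.9 (1.78, SE 0.406, adjusted p = 0.0836). Cnn1, the smooth muscle protein calponin, rose from 8.09, 9.52 and 6.99 FPKM to 15.8 and 17.9 (1.04, SE 0.200, adjusted p = 0.0521). Both were higher in each CharmeKO pool than in any CharmeWT pool, although Ccn2 was more than 2 log2 units above the CharmeWT mean in CharmeKO pool 1 (2.43) and 0.71 above it in pool 2.

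The target genes called lower were Eln, which encodes elastin, and Bhlhe40, a transcription repressor. Eln fell from 135, 78.5 and 170 FPKM to 40.8 and 59.7 (-1.35, SE 0.327, adjusted p = 0.0985). Bhlhe40 fell from 6.49, 7.69 and 7.75 FPKM to 3.18 and 4.52 (-0.92, SE 0.224, adjusted p = 0.0985). The most abundant of the list did not pass: Acta2, smooth muscle actin, was at 229, 701 and 246 FPKM against 432 and 553 (0.33, adjusted p = 0.698), and Col3a1, a fibrillar collagen, was at 0.15 (adjusted p = 0.767). Thus genes of this list moved in both directions, and with all 5 pools the median of the list was near that of all genes. The CharmeKO pools differed in this: against the mean of the CharmeWT pools, the list median was -0.30 log2 CPM in CharmeKO pool 1 and 0.23 in CharmeKO pool 2. All 5 of the pathway calls were lost without CharmeWT pool 1 and without CharmeWT pool 3, and in the latter fit the quasi-likelihood test called no gene of the whole table, with 1315 at an unadjusted p under 0.05. Without CharmeWT pool 2 Thbs1, Ccn2 and Bhlhe40 lost theirs, and without CharmeKO pool 1 so did Ccn2 (0.68, adjusted p = 0.175), Eln (-1.10, adjusted p = 0.125) and Bhlhe40 (-0.69, adjusted p = 0.103). With the correction for gene length and GC content Ccn2 (adjusted p = 0.102) and Eln (adjusted p = 0.164) were not called.

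**Figure D4:**
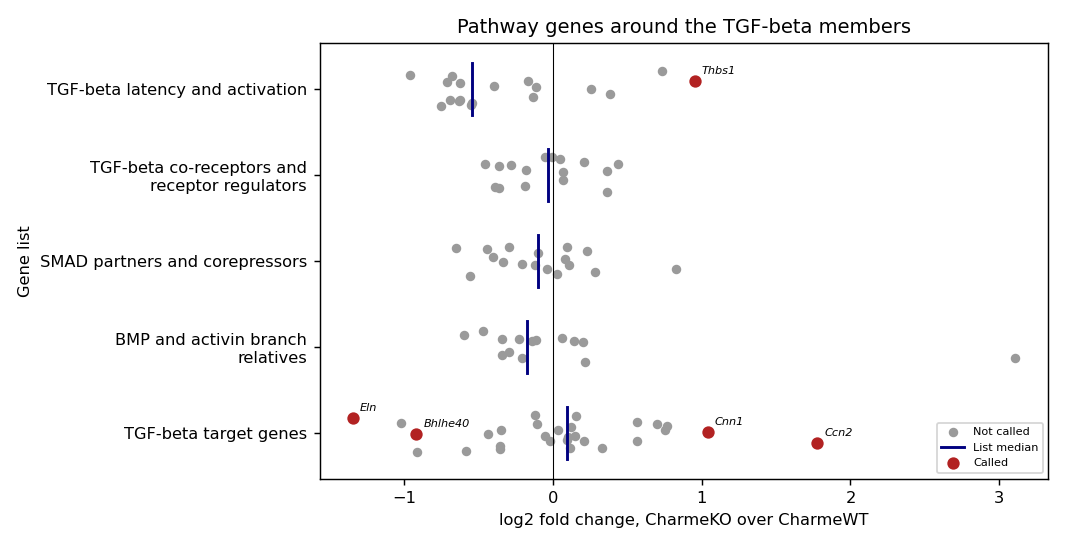
Log2 fold change, CharmeKO over CharmeWT, of the 94 tested genes of the 5 pathway lists (1 point each, spread vertically for legibility), with called genes in red and the median of each list as a blue line. The latency and activation list has its median at -0.55 and the target genes at 0.09, with called genes on both sides of 0. The point at 3.11 is Acvr1c.

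Markers of the cell types that carry these genes were measured beside them. Some also stand in the pathway lists above and are not separate measurements. These are Col1a1, Col1a2, Col3a1, Postn and Dcn among fibroblast markers, and Acta2, Tagln and Cnn1 among smooth muscle markers. Endothelial markers summed to 1120 to 1412 CPM in the CharmeWT pools and to 991 and 1156 in the CharmeKO pools, with 8 of 10 markers below 0, 4 with both CharmeKO pools below and a median of -0.35; none was called by the quasi-likelihood or likelihood ratio test and 4 had an unadjusted p under 0.05. Over all genes 18.2% had both CharmeKO pools below and 18.6% such a p. Fibroblast markers summed to 4121 to 4941 CPM and to 4794 and 5902, with 8 of 10 above 0, none called by the quasi-likelihood test, 1 called higher by the likelihood ratio test and 1 with an unadjusted p under 0.05. Smooth muscle and pericyte markers summed to 1347 to 2339 CPM and to 1615 and 1812. The largest part in every pool was Acta2, at 503, 1538 and 540 CPM in CharmeWT and at 949 and 1215 in CharmeKO. Of the 10 markers 7 were below 0, 5 had both CharmeKO pools below and 5 had an unadjusted p under 0.05. Their median was -0.52. Of these markers Cnn1 was called higher, and the likelihood ratio test called 1 higher and 1 lower. Macrophage markers summed to 101 to 163 CPM and to 130 and 214, with 1 of 10 called higher, and megakaryocyte and platelet markers, a blood source of TGF-beta 1, to at most 25.8 CPM and to 23.4 and 31.2. No marker of these lists was at 0 in every pool.

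The summed CPM of other lists was higher in both CharmeKO pools. Mitotic markers summed to 296 to 438 CPM in the CharmeWT pools and to 1544 and 880 in the CharmeKO pools, with 7 of 8 called higher. Epicardial markers summed to 101 to 157 CPM and to 202 and 189, with 1 of 8 called. Both CharmeKO pools were above for 5 of them and below for 1, Aldh1a2, beside 17.8% and 18.2% of all genes. Upk3b was counted 722, 87 and 262 times in CharmeWT and 687 and 988 times in CharmeKO. Wt1 was counted 210, 202 and 256 times and 209 and 223 times. Erythroid markers summed to 870 to 1254 CPM and to 2284 and 1619, with 3 of 7 called. Salivary gland markers summed to 0.194 to 0.303 CPM and to 329 and 25004, with 6 of 6 tested called. The part of these cell type markers in the levels of Smad3 and of the other members was not tested.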

How the data were processed

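The authors trimmed paired-end reads of 150 nucleotides and discarded those left shorter than 35, then used STAR for alignment to GRCm38 and for counts by strand on genes of Ensembl release 87. Tool versions for this step are not given in the sources used here. The deposited counts are raw whole numbers, with Charme added by name. The deposited table of FPKM values has decimal commas and was not used. FPKM were instead computed from the counts, scaled by TMM, with exon lengths from GENCODE mouse release M21. For 23 tested genes without a known length, 1 kb was used.

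Genes reaching 10 counts in 2 or more pools were tested for genotype with edgeR 4.0.16 (quasi-likelihood, Benjamini-Hochberg over all 14880 genes; R 4.3.3, limma 3.58.1), and scripts were tested on simulated data. DESeq2 1.42.0 and edgeR's likelihood ratio test were alternatives, as were other scalings, filters and left-out pools. Log2 fold changes have 95% intervals, and log2 CPM used a prior count of 1. Reads carry no molecular identifiers.

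The members and lists were chosen with earlier results of these data known. Named were all members, Charme, the 3 genes most like Smad3 and, in each pathway list, every called gene, the 2 most abundant, and the highest and lowest fold change among genes with a mean of at least 1 FPKM in a genotype. Not tested were Foxh1, Nodal, Mstn, Fst and Il11, which had too few counts.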

Additional observations from a re-analysis of the deposited data

How the results depend on the processing

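With 3 pools against 2, intervals were wide, and counts of calls moved with the test and with single pools. Of the members 0 were called, but DESeq2 and the likelihood ratio test each called 1 (Smad3), and 0 to 5 were called when single pools were left out. The pathway genes called were 5, against 14 with DESeq2, 12 with the likelihood ratio test, 3 each by the legacy quasi-likelihood test, by upper-quartile scaling and with no filter on low counts, 0 at an adjusted p under 0.05, and 0 to 40 when single pools were left out. Genes called over all tested were 305, against 1122 with DESeq2, 933 with the likelihood ratio test and 111 at an adjusted p under 0.05. With single pools left out that count was 0 to 4607. It was 0 without CharmeWT pool 3 (1315 at an unadjusted p under 0.05), 2 without CharmeWT pool 1, 187 without CharmeWT pool 2, 639 without CharmeKO pool 1 and 4607 without CharmeKO pool 2. No scaling moved the median of all genes by over 0.1 log2 units. Each scaling is built to hold that median near 0, so this does not test how the results depend on scaling.

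The labels do not say whether equal replicate numbers mark paired pools. The correlation of deviations was 0.124 for the pools numbered 1 and 0.0667 for those numbered 2. For the other combinations it ran from -0.124 to 0.0573. The deviations of 2 CharmeKO pools from their own mean mirror each other, so these values cannot decide whether the pools are paired. With the replicate number as a block, 0 members, 3 pathway genes and 210 genes in all were called, and Fkbp1a was at -0.029. Under the block Cnn1 (adjusted p = 0.104), Eln (0.154) and Bhlhe40 (0.134) were not called, and Ltbp4 was (0.0829). With the block and the length and GC correction, 0 members, 0 pathway genes and 35 genes in all were called, and values that turned were Tgfbr1 -0.010, Smad2 -0.020, Smad6 0.013, Dcn -0.085 and Acvr2a -0.084. With the length and GC correction alone Tgfbr1 was -0.082, Dcn -0.020 and Acvr2a -0.14. That correction alone called 5 pathway genes: Thbs1, Cnn1 and Bhlhe40, and in place of Ccn2 and Eln, Klf10 and Mmp2 (adjusted p = 0.0853).

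Over single pools left out, the log2 fold change ran from -1.13 to -0.065 for Tgfb1, -0.22 to 0.027 for Tgfb3, -0.13 to 0.49 for Tgfbr1, -0.95 to 0.014 for Tgfbr2, -0.84 to 0.25 for Smad6, -1.09 to 0.064 for Smad7, -0.89 to -0.66 for Smad3, -0.033 to 0.17 for Fkbp1a, -0.92 to 0.040 for Eng, -0.058 to 0.42 for Acvr2a and -0.19 to 0.42 for Col3a1. The sign turned without CharmeKO pool 1 for Tgfb3, Tgfbr1, Tgfbr2, Smad6, Smad7, Eng and Acvr2a, without CharmeKO pool 2 for Col3a1 and Fkbp1a (-0.017), without CharmeWT pool 2 for Tgfb3 (0.0074) and without CharmeWT pool 3 for Fkbp1a. The cause was not tested. Tgfb1, Tgfb2, Smad3 and Smad4 kept their direction in all alternatives run. Levels from the deposited FPKM table were not run as an alternative.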
